A study of Mus musculus with 8 samples.

Results

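RNA was sequenced from the hearts of 8 male mice fed standard chow. Wild-type hearts carried the numbers 2, 4, 5 and 6, and hearts lacking Gpihbp1 (Gpihbp1-/-) the numbers 1, 2, 3 and 4. GPIHBP1 is the capillary protein that holds lipoprotein lipase, and the stated question was what its loss does to the heart; the labels used here give no strain, age, litter or collection day. The genes described here are 8 markers of resident cardiac macrophages, Lyve1, Folr2, Mrc1, Cd163, F13a1, Cbr2, Timd4 and Csf1r. They were chosen by gene symbol from the 17190 genes of the count table. All 8 were listed, and all 8 passed the filter on low counts that left 12826 genes for testing.

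Macrophages are present in the healthy heart. Many descend from embryonic precursors and renew themselves locally with little input from blood monocytes, and the surface proteins LYVE1, FOLR2 and TIMD4 are widely used to recognise this self-renewing population. Monocytes that enter the heart after injury carry the chemokine receptor CCR2 and can give rise to macrophages that share general markers with the residents. In bulk tissue, fewer cells of a type and less RNA per cell cannot be told apart, so each value below is a level of RNA in the whole heart.

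Total counts per library ran from 9065553 to 13492957. Gpihbp1 had 833 to 1951 reads in the wild-type hearts and 0 or 1 read in each knockout heart, so every library matched the genotype in its label. Wild-type 2 and knockout 2 stood apart from the other 6 hearts in many genes: in 22.2% of tested genes these 2 libraries held the 2 highest values. Their summed level of 8 fibroblast and matrix genes was 8453 and 10185 CPM (counts scaled to library size by the TMM method), against 897 to 1125 CPM in the other hearts. The genes of that list differed: Col3a1 stood at 3607 and 4384 CPM against 109 to 203 CPM elsewhere. Dcn, the only exception among the 8, stood at 744 and 536 CPM against 516 to 636 CPM. The summed level of 8 cardiomyocyte markers was lowest in wild-type 2 and knockout 2, at 38625 and 37115 CPM against 53038 or more. For Actc1, Tnnt2 and Ryr2 of that list, wild-type 2 and knockout 2 did not hold the 2 lowest values. Tnnt2 was lowest in knockout 2, at 3895 CPM, but stood at 4770 CPM in wild-type 5 and 5332 CPM in wild-type 2. Actc1 stood at 13807 and 14254 CPM there, above wild-type 4 at 8150 and knockout 1 at 9608 CPM. Wild-type 6 had the lowest TMM scaling factor, 0.678, against 0.964 or more elsewhere. Results are therefore given with and without these libraries where they matter.

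The 8 markers differed widely in abundance. On the deposited TPM scale, which corrects for transcript length, the mean over the 8 hearts was 70.1 for Cbr2, 40.6 for Folr2, 32.9 for Csf1r, 22.7 for F13a1, 14.3 for Mrc1, 11.1 for Lyve1, 4.92 for Cd163 and 1.83 for Timd4. Cbr2 was above Folr2, Csf1r above F13a1, F13a1 above Mrc1 and Lyve1 above Cd163 in 8 of 8 hearts, and Folr2 was above Csf1r and Cd163 above Timd4 in 7 of 8. Mrc1 was above Lyve1 in 2 of 8 hearts, wild-type 2 (33.85 against 5.92 TPM) and knockout 2 (41.39 against 14.85 TPM). Lyve1 was above Mrc1 in all other hearts, so the higher mean of Mrc1 rested on those 2. The SD of log2 CPM over the 8 libraries had a median of 0.72 for the markers and 0.45 for all tested genes. It was above the latter for 7 markers, from 0.53 for Cd163 to 1.124 for Mrc1, and below it for Lyve1, at 0.37.

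No marker passed the test between genotypes. In edgeR's quasi-likelihood test, 0 of 8 had an adjusted p under 0.05, where 4 of 12826 genes (0.0312%) passed in all. At an unadjusted p under 0.05 there was 1 marker, Lyve1, where 116 genes (0.904%) reached that level. DESeq2 also called 0 of 8, but it gave no p-value for Mrc1, which was therefore not tested there. The log2 fold changes were positive for 4 markers and negative for 4, with a median of -0.0051, beside a median of -0.019 and 47.1% positive over all tested genes. Every marker had an adjusted p of 0.99998. Without wild-type 2 and knockout 2 the count that passed was again 0 of 8, with 0 at an unadjusted p under 0.05.

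**Figure D1:**
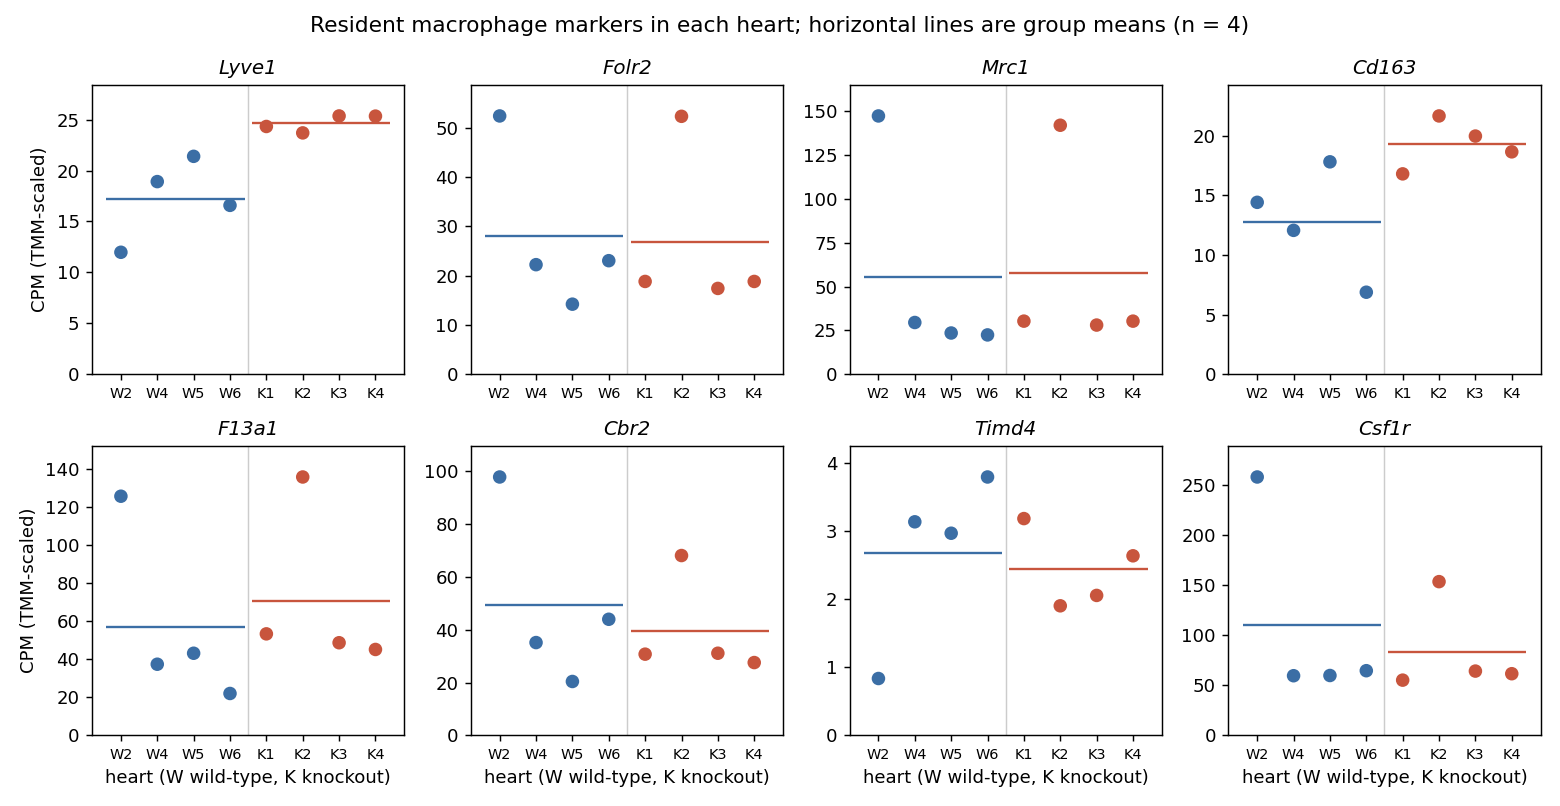
Level of each marker in each heart in CPM (vertical axes from 0, a separate scale in each panel); points are hearts, blue wild-type (W) and red knockout (K), and horizontal lines are group means of 4 hearts. Mrc1, Csf1r, F13a1, Cbr2 and Folr2 were highest in W2 and K2, while Lyve1 was between 23.7 and 25.4 CPM in the knockout and below 21.4 CPM in all wild-type hearts except W5, which stood at 21.4.

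Lyve1, a receptor for the matrix sugar hyaluronan that is also made by lymphatic endothelium, had the clearest separation of the genotypes. It stood at 12.0, 18.9, 21.4 and 16.6 CPM in wild-type 2, 4, 5 and 6 and at 24.3, 23.7, 25.4 and 25.3 CPM in knockout 1, 2, 3 and 4. The 4 knockout hearts lay close together and all above the 4 wild-type hearts, which spread more. Groups that do not overlap, with the knockout higher, occurred in 34 of 12826 genes (0.265%). The means were 17.2 ± 4.01 and 24.7 ± 0.815 CPM (SD, n = 4 in each group). The log2 fold change was 0.52 (standard error 0.21), and its 95% interval ran from 0.037 to 1.002. The unadjusted p was 0.0374 and the edgeR adjusted p 0.99998, so the difference did not pass over all genes.

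Lyve1 kept its direction when each heart was left out in turn (8 fits), with log2 fold changes from 0.38 to 0.64 and unadjusted p-values from 0.0190 to 0.106 (edgeR adjusted p at least 0.758). Without both wild-type 2 and knockout 2 it was 0.40, with an interval from -0.11 to 0.90. The groups stayed separate under RLE scaling, total-count scaling and in the deposited FPKM values; in the deposited TPM values they overlapped, with wild-type 5 at 13.2 and knockout 3 at 12.8 TPM. Lymphatic endothelial markers, which share Lyve1 with macrophages, had 0 of 9 genes past the threshold, 7 positive and 2 negative log2 fold changes and a median of 0.19. Their summed level ran from 129 to 221 CPM in the wild type and from 147 to 193 CPM in the knockout, and none of the 9 was at 0 in every library. The 4 most abundant had log2 fold changes of -0.19 for the chemokine gene Ccl21a, 0.065 for the transcription factor gene Prox1, 0.32 for the growth factor receptor gene Flt4 and 0.014 for Pdpn, with standard errors from 0.41 to 1.01. The highest value of the list was that of Mmrn1, at 0.70 (standard error 0.68). Prox1 was highest in wild-type 5, knockout 3 and knockout 4, the hearts in which the cardiomyocyte myosin gene Myh6 was also highest. The part of lymphatic vessels in the Lyve1 level was not tested.

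Cd163, the scavenger receptor that takes up haptoglobin-haemoglobin complexes, resembled Lyve1 in its levels. It stood at 14.4, 12.1, 17.8 and 6.89 CPM in wild-type 2, 4, 5 and 6 and at 16.8, 21.7, 20.0 and 18.7 CPM in knockout 1, 2, 3 and 4. Only knockout 1 fell within the wild-type range, below wild-type 5, and wild-type 6 was the lowest heart. The log2 fold change was 0.59 (standard error 0.28), with a 95% interval from -0.053 to 1.23 (edgeR adjusted p = 0.99998). With total-count scaling the groups did not overlap, as in 0.53% of tested genes with the knockout higher, nor did they in the deposited FPKM values. Under RLE scaling and in the deposited TPM values they overlapped. In TPM, wild-type 5 at 6.18 was above knockout 1, 3 and 4 at 5.28, 5.72 and 5.82. Without wild-type 6 the log2 fold change was 0.37, and over the 8 fits that left out 1 library it ran from 0.37 to 0.78.

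Timd4, a receptor for phosphatidylserine on dying cells, rested on few reads, between 12 and 36 per library. It stood at 0.836, 3.14, 2.97 and 3.79 CPM in wild-type 2, 4, 5 and 6 and at 3.18, 1.90, 2.06 and 2.64 CPM in knockout 1, 2, 3 and 4. Wild-type 2 was the lowest heart and knockout 2 the next, and the genotypes overlapped. The exact 95% Poisson interval for wild-type 2 ran from 0.432 to 1.46 CPM and did not reach the intervals of the other 3 wild-type hearts, the lowest of which began at 2.06 CPM; such intervals cover counting error only. The log2 fold change was -0.12, with an interval from -1.16 to 0.92.

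The other 5 markers shared a pattern across hearts that did not follow genotype: wild-type 2 and knockout 2 held the 2 highest values of each. Mrc1, the mannose receptor CD206 that takes up glycoproteins, was the most extreme. It stood at 147, 29.6, 23.6 and 22.5 CPM in wild-type 2, 4, 5 and 6 and at 30.3, 142, 28.1 and 30.3 CPM in knockout 1, 2, 3 and 4. Apart from the highest heart of each group, the remaining 6 hearts lay between 22.5 and 30.3 CPM, and the genotypes overlapped. The log2 fold change was 0.049 (standard error 0.77), with a 95% interval from -1.68 to 1.77. It turned to 1.19 without wild-type 2 and to -0.91 without knockout 2, and without both it was 0.23, with a much narrower interval from -0.29 to 0.75.

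Csf1r, the receptor for the growth factors CSF1 and IL-34 on which most macrophages depend, stood at 258, 59.5, 59.7 and 64.5 CPM in wild-type 2, 4, 5 and 6. In knockout 1, 2, 3 and 4 it stood at 55.1, 153, 64.1 and 61.5 CPM. The other 6 hearts fell within a narrow band from 55.1 to 64.5 CPM in both genotypes. The log2 fold change was -0.40 with a 95% interval from -1.67 to 0.86. Without wild-type 2 and knockout 2 it was -0.024, with an interval from -0.53 to 0.48, and it turned to 0.45 without wild-type 2 alone.

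F13a1, which encodes the A subunit of the fibrin-linking transglutaminase factor XIII, stood at 126, 37.4, 43.2 and 22.1 CPM in wild-type 2, 4, 5 and 6 and at 53.4, 136, 48.8 and 45.2 CPM in knockout 1, 2, 3 and 4. Outside wild-type 2 and knockout 2, the knockout hearts ran from 45.2 to 53.4 CPM and the wild-type hearts from 22.1 to 43.2 CPM, with wild-type 6 the lowest. Among these hearts, 3 in each group, 2 of the 8 markers, F13a1 and Lyve1, had groups that did not overlap with the knockout higher, as did 291 of 12826 genes (2.27%). For F13a1 the log2 fold change was 0.31 with a 95% interval from -0.95 to 1.57, and 0.52 with an interval from -0.15 to 1.18 without wild-type 2 and knockout 2. It was 1.04 without wild-type 2 alone and -0.22 without knockout 2 alone. Platelets also carry this transglutaminase. Of 8 platelet markers 4 were tested and 0 passed; their summed level was 20.2, 11.5, 4.89 and 54.1 CPM in wild-type 2, 4, 5 and 6 and 15.2, 33.9, 20.7 and 5.18 CPM in knockout 1, 2, 3 and 4. None of the 8 was at 0 in every library. Knockout 2 was thus the highest knockout heart for both this sum and F13a1, and wild-type 6 the highest wild-type heart for the sum and the lowest for F13a1. The part of platelets in the F13a1 level was not tested.

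Folr2, a folate receptor anchored in the outer membrane, stood at 52.4, 22.2, 14.2 and 23.0 CPM in wild-type 2, 4, 5 and 6 and at 18.8, 52.3, 17.4 and 18.8 CPM in knockout 1, 2, 3 and 4. Cbr2, a carbonyl reductase, stood at 97.9, 35.2, 20.4 and 44.0 CPM in wild-type 2, 4, 5 and 6 and at 30.8, 68.1, 31.1 and 27.6 CPM in knockout 1, 2, 3 and 4. In both genes wild-type 5 was the lowest heart and the genotypes overlapped. The log2 fold change of Folr2 was -0.059, with a 95% interval from -1.14 to 1.02. That of Cbr2 was -0.32, with an interval from -1.41 to 0.76.

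**Figure D2:**
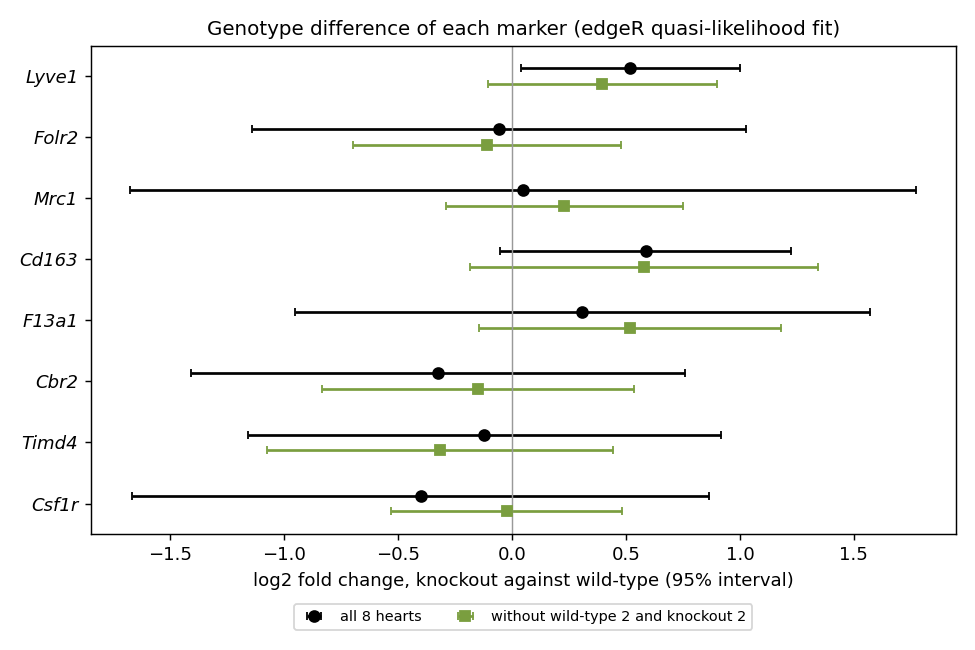
Log2 fold change of each marker, knockout against wild-type, from edgeR's quasi-likelihood fit (horizontal axis) with 95% intervals; black circles use all 8 hearts and green squares leave out wild-type 2 and knockout 2. The interval of Mrc1 shrank from -1.68 to 1.77 with all hearts to -0.29 to 0.75 without those 2, and the interval of Lyve1 was above 0 with all hearts only.

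The likeness of the markers to each other was measured as the root-mean-square difference of their log2 CPM, each centred on its own mean over the 8 hearts; it is a description of these libraries, which share depth and scaling, and carries no test. The closest pair was Folr2 and Cbr2, at 0.18, followed by Folr2 and Csf1r at 0.29 and Cbr2 and Csf1r at 0.31. Lyve1 was nearest to Cd163, at 0.41. The most distant pair was Mrc1 and Timd4, at 1.57. The markers therefore did not form a single profile. In wild-type 2, Mrc1, Csf1r, F13a1, Cbr2 and Folr2 lay 1.10 to 1.83 log2 units above their own means, while Cd163, Lyve1 and Timd4 lay at -0.079, -0.76 and -1.34. The gap was smaller in knockout 2, where the former lay 0.79 to 1.77 above and Cd163, Lyve1 and Timd4 at 0.50, 0.22 and -0.30.

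Among other genes, the profile of Mrc1 was most like those of Igsf6 and Dbf4 (differences of 0.11 and 0.12), that of Csf1r like Ptpro and Camk1d (0.085 and 0.10), and that of Folr2 like Myd88 and Anxa4 (0.076 and 0.090). F13a1 was nearest to Sdcbp and Ptprj (0.12 and 0.16), and Cbr2 to Aph1c and Cybc1 (0.12 for both). Lyve1 was nearest to Armcx5 and Mocs1 (0.11 and 0.15), Cd163 to Nt5dc1 and Acvr1b (0.077 and 0.12), and Timd4 to Aox1 and Ces2e (0.18 for both). The mean profile of the 8 markers was most like Atp6v1h, Copb1, Rcc1, Daxx, Chst14, Atp13a2, Lipa and Sft2d1, at 0.088 to 0.11. The gene nearest to Mrc1, Igsf6, stood at 15.05 and 14.83 CPM in wild-type 2 and knockout 2 and between 1.83 and 3.23 CPM elsewhere.

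The division among the markers is the reason for showing the stretch upstream of 4 of them. Wild-type 2 and knockout 2 held the 2 highest values of Mrc1 and Cbr2, but not of Cd163 and Timd4. The division is not sharp, as Cd163 was also highest in knockout 2, at 21.7 CPM, with wild-type 2 at 14.4 CPM. RefSeq promoter sequences of build GRCm38.p6 were matched for 6 of the 8 markers. Each run covers 235 bases, from 250 to 16 bases before the gene's start, 5′ to 3′ on the gene's strand: chr2:14229164-14229398 on the plus strand for Mrc1, chr11:120732037-120732271 on the minus strand for Cbr2, chr6:124304401-124304635 on the plus strand for Cd163 and chr11:46810549-46810783 on the plus strand for Timd4. Capitals mark matches on either strand to GAGGAA, a core of the sites bound by the macrophage factor PU.1, or to TTGCNNAA of the C/EBP family. No match printed here overlaps another.
Mrc1: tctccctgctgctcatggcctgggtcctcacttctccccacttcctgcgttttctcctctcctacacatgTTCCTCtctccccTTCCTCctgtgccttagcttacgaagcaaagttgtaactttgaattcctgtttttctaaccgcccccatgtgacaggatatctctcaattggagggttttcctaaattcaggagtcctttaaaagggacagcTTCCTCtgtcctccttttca
Cbr2: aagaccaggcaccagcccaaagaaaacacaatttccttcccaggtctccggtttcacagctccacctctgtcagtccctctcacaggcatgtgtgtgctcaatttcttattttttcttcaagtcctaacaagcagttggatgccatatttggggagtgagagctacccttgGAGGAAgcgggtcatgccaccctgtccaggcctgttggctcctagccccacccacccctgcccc
Cd163: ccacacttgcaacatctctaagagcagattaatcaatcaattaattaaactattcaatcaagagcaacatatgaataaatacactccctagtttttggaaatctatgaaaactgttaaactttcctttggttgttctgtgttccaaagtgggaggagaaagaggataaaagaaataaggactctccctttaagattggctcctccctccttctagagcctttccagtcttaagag
Timd4: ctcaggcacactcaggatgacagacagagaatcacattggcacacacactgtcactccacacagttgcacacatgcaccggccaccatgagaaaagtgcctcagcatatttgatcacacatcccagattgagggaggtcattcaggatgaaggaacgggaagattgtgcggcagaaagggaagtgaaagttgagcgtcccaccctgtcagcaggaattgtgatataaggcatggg

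The window of Mrc1 held 3 matches to the PU.1 letters, on the opposite strand, the nearest 35 to 30 bases before the start. Those of Cbr2 and F13a1 held 1 each, and the windows of Folr2, Cd163 and Timd4 held 0. Folr2, whose window is not printed, was highest in wild-type 2 and knockout 2, as were Mrc1, Cbr2 and F13a1. The matches thus did not divide the markers as the levels did, and any link between them was not tested. The C/EBP letters were found in 0 of the 6 windows. Over all 32851 promoter windows of the same length, 21.8% held the PU.1 letters and 9.17% the C/EBP letters. A match is a match of letters only.

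**Figure D3:**
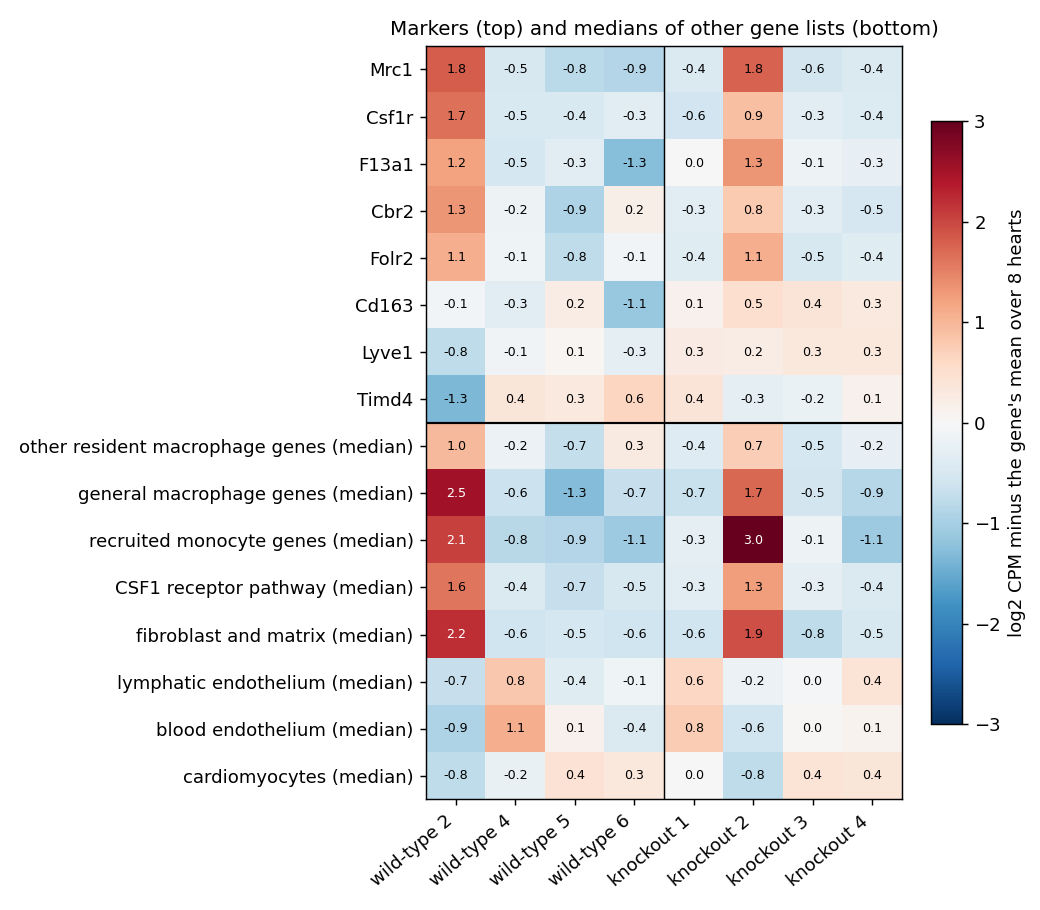
Mean-centred log2 CPM of the 8 markers (upper rows) and the median of the same quantity over other gene lists (lower rows) in each heart; red is above and blue below the gene's mean over 8 hearts, and numbers are rounded to 0.1. General macrophage genes reached 2.53 in wild-type 2 and 1.73 in knockout 2, beside -0.76 and 0.22 for Lyve1.

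Genes listed as general macrophage genes were set beside the markers, and the part of other blood cells in the levels of these genes was not tested. Of 18 such genes tested, 0 passed the test between genotypes, 4 had positive and 14 negative log2 fold changes, and the median was -0.44. Their summed level was 5962, 748, 500 and 1031 CPM in wild-type 2, 4, 5 and 6 and 732, 4002, 837 and 658 CPM in knockout 1, 2, 3 and 4. Wild-type 2 and knockout 2 held the 2 highest values for 17 of the 18, all but Mertk, against 5 of the 8 resident markers and 22.2% of all genes. The most abundant were Lyz2, encoding lysozyme, and the complement genes C1qa, C1qb and C1qc. Lyz2 stood at 1809 and 1117 CPM in wild-type 2 and knockout 2 and between 174 and 296 CPM elsewhere. Cd68, a lysosomal protein of macrophages, stood at 192 and 217 CPM in those hearts and between 14.3 and 19.8 CPM elsewhere.

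The ratio of each marker to this sum, which holds none of the markers, was lower in wild-type 2 than in wild-type 4, 5 and 6 for 7 of the 8; the exception was Mrc1, which was lower still in wild-type 6. Lyve1 stood at 2.01, 25.3, 42.8 and 16.1 CPM per 1000 CPM of general macrophage genes in wild-type 2, 4, 5 and 6 and at 33.2, 5.92, 30.3 and 38.5 in knockout 1, 2, 3 and 4. Timd4 stood at 0.140 in wild-type 2 and 0.476 in knockout 2, and between 2.46 and 5.94 in the other hearts. Mrc1 changed least across hearts on this scale, from 21.8 to 47.2, with wild-type 2 at 24.7 and knockout 2 at 35.5. The 8 markers together stood at 119 and 150 per 1000 in wild-type 2 and knockout 2 and between 197 and 407 in the other 6. The genotypes overlapped in these ratios for every marker.

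**Figure D4:**
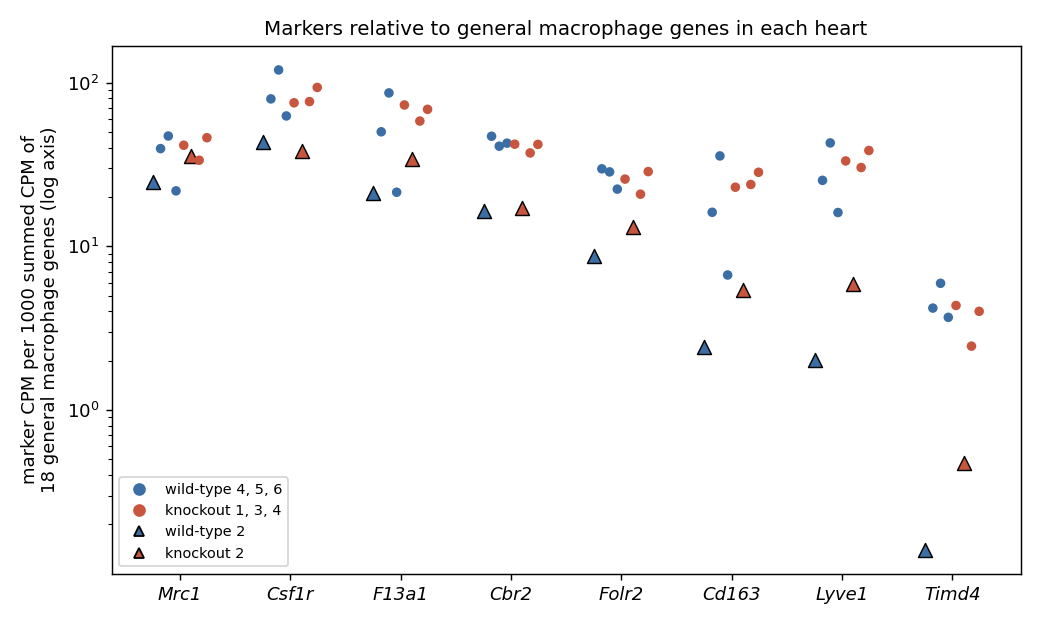
CPM of each marker per 1000 CPM summed over 18 general macrophage genes, on a log axis, in each heart; blue is wild-type, red knockout, and triangles with a black edge are wild-type 2 and knockout 2. In these 2 hearts Timd4, Lyve1 and Cd163 lay lowest of all hearts, at 0.140 and 0.476, 2.01 and 5.92, and 2.42 and 5.41. So did Folr2, at 8.79 and 13.1, Cbr2, at 16.4 and 17.0, and Csf1r, at 43.2 and 38.3. Mrc1 and F13a1 did not.

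Recruited monocyte genes were high in the same hearts. Of 11 tested, 0 passed between genotypes, with 6 positive and 5 negative log2 fold changes and a median of 0.15, and wild-type 2 and knockout 2 held the 2 highest values for 9 of the 11. Ccr2, the chemokine receptor of recruited cells, stood at 151 and 87.2 CPM in these hearts and between 2.73 and 6.46 CPM in the other 6. The ratio of Lyve1 to Ccr2 CPM, which is not corrected for length and is read only between hearts, was 0.0794 in wild-type 2, 0.272 in knockout 2 and between 3.92 and 9.28 in the other hearts. Thbs1, encoding thrombospondin, and Vcan, encoding the proteoglycan versican, were likewise highest there, with Thbs1 at 152 and 133 CPM against 10.9 CPM or less. The exceptions were Ace and Nr4a1. Ace, which encodes the angiotensin-converting enzyme and was the most abundant of the list, stood at 81.4 and 73.0 CPM in wild-type 2 and knockout 2 and between 55.4 and 101 CPM elsewhere. Nr4a1, a nuclear receptor of patrolling monocytes, stood at 42.3 and 15.2 CPM there and between 12.4 and 43.7 CPM elsewhere.

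For neither ligand of the receptor encoded by Csf1r did wild-type 2 and knockout 2 hold the 2 highest values. Csf1 stood at 99.8, 76.4, 108 and 65.4 CPM in wild-type 2, 4, 5 and 6 and at 97.2, 131, 85.7 and 101 CPM in knockout 1, 2, 3 and 4, with a log2 fold change of 0.24 (standard error 0.25). Il34 had 3.41 to 7.17 CPM over all hearts and a log2 fold change of -0.089 (standard error 0.30). Spi1, which encodes the lineage factor PU.1, stood at 71.4 and 56.8 CPM in wild-type 2 and knockout 2 and between 4.19 and 10.7 CPM elsewhere. Of 16 genes of the CSF1 receptor pathway and lineage factors, 0 passed between genotypes, 6 were positive and 10 negative, the median was -0.088, and 13 were highest in those 2 hearts. Cd68, Il34, Spi1, Nr4a1, Mmrn1 and Igf1 are named here after their values were seen.

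Other genes reported in resident macrophages were divided like the markers. Of 18 listed, 16 were tested and 0 passed, with 4 positive and 12 negative log2 fold changes and a median of -0.33. Wild-type 2 and knockout 2 held the 2 highest values for 11 of the 16. Stab1, a scavenger receptor, stood at 319 and 298 CPM there and between 101 and 178 CPM elsewhere, and Igf1, the growth factor, at 66.1 and 36.6 against 12.5 to 22.6 CPM. Gas6, a bridging ligand for dying cells that is not particular to macrophages, had 188 to 247 CPM over all hearts and a log2 fold change of 0.14 (standard error 0.23). Selenop, a selenium carrier, stood at 637 and 553 CPM in the 2 hearts and between 347 and 424 CPM elsewhere.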

How the data were processed

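RNA was measured in 8 mouse hearts. TRIzol extraction was followed by poly(A) selection, and strand-specific paired-end libraries were read on a DNBSEQ instrument, per the labels' protocols; a paragraph of the labels names rat, while the organism given is mouse. HISAT, Bowtie2 and build GRCm39 appear in the submitters' processing notes, with neither role nor version; how reads were counted is not stated there. The authors deposited estimated counts (expected counts), TPM and FPKM per gene, per the file headers; 8 further per-sample columns were empty and not used. TPM deposited by the authors served for levels between genes, and FPKM deposited by the authors only for a check of overlap.

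Estimated counts were rounded, 4.32% to 5.89% of a library's values not being whole. Genes were kept by filterByExpr (minimum count 10, total 15) and fitted with edgeR 4.0.16 in R 4.3.3 (TMM, robust quasi-likelihood F-test, no covariates, Benjamini-Hochberg over 12826 genes, threshold 0.05), with DESeq2 1.42.0 as an alternative. Standard errors are the log2 fold change over the root of F. Centred log2 CPM used a prior count of 2. The fit was tested on simulated data, with counts drawn independently and changes between the groups put into some genes. Those data held no shift shared by wild-type 2 and knockout 2, so that test does not bear on it. Libraries differed beyond sampling noise (chi-square per degree of freedom at least 7.29 for every pair). Nothing says that hearts of a group came from separate litters or batches, so p-values reflect only the variation among these 8 hearts.

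Named genes were the 8 markers, Gpihbp1, the most abundant members of each of 14 companion lists and the genes of nearest profile, passing over predicted genes; others are said to be chosen after their values were seen. The members and lists were chosen with earlier results of these data known. Alternatives were RLE and total-count scaling, no and strict (1 CPM in 4 libraries) filters, DESeq2, a replicate block and leaving out libraries; for the ratios to general macrophage genes, Cd68, Adgre1 or TPM sums. A further companion gene and a sequence motif are not reported here.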

Additional observations from a re-analysis of the deposited data

Results flagged for a closer look

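In groups of 4 hearts, a heart was picked out when its gap to the nearest other heart exceeded 0.829 of the group's whole range. Of 36 groups looked at, 9 held such a heart, and every such heart was wild-type 2 or knockout 2. Chance gives about 1 in 20 for a single group, but all 36 reuse the same 8 hearts and are not separate trials, so that rate is no expectation for the count. Wild-type 2 stood out for Mrc1 at 147 CPM (nearest 29.6) and for Csf1r at 258 CPM (nearest 64.5). Knockout 2 stood out for Folr2 at 52.3 CPM (nearest 18.8), for Mrc1 at 142 CPM (nearest 30.3), for F13a1 at 136 CPM (nearest 53.4), for Cbr2 at 68.1 CPM (nearest 31.1) and for Csf1r at 153 CPM (nearest 64.1). The summed level of general macrophage genes stood out at 5962 CPM in wild-type 2 (nearest 1031) and at 4002 CPM in knockout 2 (nearest 837). Lyve1, Cd163 and Timd4 had no heart apart by this measure in either group.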

How the results depend on the processing

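The count of markers past the threshold was 0 of 8 in the fit reported and in all 16 alternatives, with no p-value for Mrc1 in DESeq2. Lyve1 and Cd163 kept a positive log2 fold change in each. With total-count scaling, which moved the median of all genes from -0.019 to 0.081, Folr2 turned to 0.052 and Timd4 to 0.031; with the replicate block Mrc1 turned to -0.0094 and Timd4 to 0.39. Leaving out wild-type 2, wild-type 6 and knockout 2 turned Folr2 to 0.014, Cbr2 to 0.11 and Csf1r to 0.017. Over the fits without 1 library, the log2 fold change ran from -0.61 to 0.44 for Folr2, from -0.91 to 1.19 for Mrc1, from -0.22 to 1.04 for F13a1, from -0.73 to 0.25 for Cbr2, from -0.43 to 0.060 for Timd4 and from -0.87 to 0.45 for Csf1r; for all of these except Timd4, the ends were the fits without knockout 2 and without wild-type 2. The cause of these turns was not tested. Gpihbp1 passed in every alternative. Of 128 companion genes tested in edgeR, 0 passed (2 at an unadjusted p under 0.05), and in DESeq2 0 passed (5). A gene without a DESeq2 p-value counts as not passing, and how many companion genes lacked one is not given here. With the replicate block 3 passed: Nr4a1 at -1.12, Chil3 at 2.50 and Hp at 2.33. The log2 ratio of the summed markers to general macrophage genes, 0.19 higher in the knockout with an SD between hearts of 0.67, moved by less than that SD under each alternative but turned sign in 2, to -0.127 without wild-type 2 and to -0.126 without wild-type 2, wild-type 6 and knockout 2; without 1 library it ran from -0.127 to 0.465, the latter without wild-type 5. The block rests on numbers 2 and 4, which both groups share; deviations from the group means correlated at 0.91 for the hearts numbered 2 and 0.11 for those numbered 4, while wild-type 4 correlated at 0.69 with knockout 1, so the numbers are not taken as pairs. With the replicate block 168 genes passed in all, against 4 without it. Counts of all genes that passed in the other alternatives were 8 with DESeq2, 3 with RLE and total-count scaling, 4 with either other filter and 2 or 3 in the fits that left out libraries. Timd4, at 12 to 36 reads a library, is the marker most limited by depth.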

Other observations

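Genes of haemoglobin and iron handling, the pathway that Cd163 feeds, had 0 of 11 tested genes past the threshold, with 3 positive and 8 negative log2 fold changes and a median of -0.20. Hmox1, the enzyme that opens the haem ring, stood at 212 and 332 CPM in wild-type 2 and knockout 2 and between 7.17 and 13.9 CPM in the other 6 hearts. Cd163 stood at 14.4 and 21.7 CPM in those 2 hearts and between 6.89 and 20.0 CPM in the other 6. Fth1, a subunit of the iron store ferritin, stood at 5646 CPM in wild-type 6 and between 1572 and 2377 CPM in the other hearts. Blvrb, biliverdin reductase B, had a log2 fold change of -0.81 (standard error 0.42).

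Receptors and bridging molecules for dying cells, the company of Timd4, had 0 of 10 tested genes past the threshold, 4 positive and 6 negative, with a median of -0.0059. Axl, a receptor for Gas6, stood at 249 and 200 CPM in wild-type 2 and knockout 2 and between 94.8 and 123 CPM elsewhere. Mertk, its relative on resident macrophages, stood at 32.0, 43.5, 24.5 and 13.5 CPM in wild-type 2, 4, 5 and 6 and at 31.4, 31.5, 21.5 and 22.0 CPM in knockout 1, 2, 3 and 4, and was the only general macrophage gene of the 18 for which wild-type 2 and knockout 2 did not hold the 2 highest values. Stab2 had 0.348 and 0.656 CPM in these hearts and between 1.14 and 3.11 CPM elsewhere.

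Markers of other blood cells were compared as well. Of 8 neutrophil markers 5 were tested and 0 passed, with 5 of 5 positive, beside 47.1% of all tested genes, and a median log2 fold change of 1.54. Mmp9 and Cxcr2 had unadjusted p-values of 0.0347 and 0.0483 (edgeR adjusted p = 0.99998), where 0.904% of all tested genes had one under 0.05. The summed level of the 8 was 44.9, 14.7, 8.21 and 33.6 CPM in wild-type 2, 4, 5 and 6 and 35.0, 121, 86.3 and 9.23 CPM in knockout 1, 2, 3 and 4. Only knockout 2 and 3 lay above every wild-type heart. Of 8 dendritic cell markers 3 were tested and 0 passed; Cd209a, an antigen receptor of such cells, had 20.0 CPM in wild-type 2 and at most 0.703 CPM in every other heart, knockout 2 included at 0.591. Hmox1, Blvrb, Mertk, Stab2, Cxcr2 and Cd209a were picked out after their values were seen.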
